A study of Mus musculus with 28 samples.

Results

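Cathepsins are the proteases of lysosomes and endosomes. The 10 members described here are Ctsa, Ctsb, Ctsc, Ctsd, Ctse, Ctsf, Ctsh, Ctsl, Ctss and Ctsz, taken by symbol from a count table of 24062 genes, and all 10 passed the filter on low counts. In the hippocampus of 3xTg mice given vehicle, 3 of the 10 rose against WT and none fell: Ctse 10.5-fold, Ctss 1.46-fold and Ctsh 1.40-fold. Of all genes tested, 13.1% were called there. Ctse and Ctss rose in every comparison of the genotypes. With NAVI, Ctsd, Ctsz and Ctsa also passed the test between genotypes, as did 5.98% of all genes. None of these 3 passed without 3xTg NAVI replicate 3. No member passed the test between either drug and its vehicle, and at most 0.00611% of all genes did.

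Cathepsins are made as inactive precursors, carried to acidic compartments and activated there by cleavage. Cathepsins D and E are aspartyl proteases, cathepsin A is a serine carboxypeptidase, and cathepsins B, C, F, H, L, S and Z are cysteine proteases held in check by cystatins. In the brain they degrade proteins taken up by phagocytosis and delivered by autophagy. Microglia are rich in several of them, and cathepsin S also trims the invariant chain of MHC class II.

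Messenger RNA was sequenced from hippocampi of female mice in 7 groups of 4 libraries. The 3xTg groups received NAVI (navitoclax, ABT263, which blocks BCL-2 family proteins that keep cells alive), DQ (the kinase inhibitor dasatinib with the flavonoid quercetin), or 1 of 2 vehicles labelled VehN and VehD. The WT groups, labelled BL6129, received NAVI, DQ or a vehicle labelled only Veh. Both drugs are used as senolytics, agents meant to remove senescent cells. The 3xTg-AD line is a model of Alzheimer's disease with a mutant presenilin-1 knock-in and human APP and tau transgenes driven by a neuronal Thy1 cassette, as background knowledge of the line. The sources used here do not give age, dose, duration or the alleles of these animals.

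Library totals ran from 32080861 to 54019519 counts. Levels are counts scaled to library size (CPM) with TMM factors, and differences are log2 values with a standard error (SE). A gene was called at an edgeR adjusted p under 0.05 over 16369 genes. Markers of neighbouring tissue varied among libraries of the same group. The summed level of 12 choroid plexus markers ran from 414 to 6313 CPM in WT Veh and from 3754 to 8903 CPM in VehN, and that of 12 thalamus and habenula markers reached 1134 CPM in VehN against 485 CPM at most in WT Veh. The summed level of 15 homeostatic microglia markers was 459 to 538 CPM in WT Veh, 483 to 628 CPM in VehN and 571 to 655 CPM in VehD. In bulk tissue, fewer cells of a type and less RNA per cell cannot be told apart.

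On build mm10 (GRCm38), Ctse lies on chromosome 1 from 131638306 to 131675505, Ctss on chromosome 3 from 95526786 to 95556403, and Ctsh on chromosome 9 from 90054152 to 90076089. Ctsd lies on chromosome 7 from 142375911 to 142388038 and Ctsb on chromosome 14 from 63122462 to 63145923. Ctsz and Ctsa share chromosome 2, from 174427493 to 174439039 and from 164832873 to 164841032. Ctse, Ctsf and Ctsh overlap no other annotated gene. Ctsa overlaps Neurl2 and Pltp, Ctsb overlaps Fdft1, Ctsz overlaps Nelfcd, and Ctsl overlaps Gm47123 and Gm49230, while Ctsc, Ctsd and Ctss overlap predicted genes or a pseudogene. The strand setting of the counting is not given, so the counts of these 7 members are uncertain in the overlaps. Gm49369 with Ctsd, Gm49230 with Ctsl and the pseudogene with Ctss lie on the same strand, where no strand setting would separate the counts.

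Promoter windows from RefSeq (GRCm38.p6), 250 bases before to 50 after a start, were matched for 7 of the 10 members, with 8 windows. The Ctss stretch is shown because Ctss rose in every genotype comparison, and those of Ctsd and Ctsa because their levels moved together across libraries. Capitals mark motifs searched on both strands. In Ctss (chr3:95526725-95526805, + strand) they are GAAA repeated after any 2 bases, an interferon response-like element chosen after that sequence had been seen, and GAGGAAG, a core bound by PU.1-like factors, read on the opposite strand. In Ctsd (chr7:142387880-142387965, - strand) and Ctsa (chr2:164833721-164833792, + strand) they are CACGTG, the core bound by TFEB-like factors. All are written 5′ to 3′ on the gene's strand.
Ctss: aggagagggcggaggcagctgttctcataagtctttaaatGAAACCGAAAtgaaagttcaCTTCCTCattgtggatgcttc
Ctsd: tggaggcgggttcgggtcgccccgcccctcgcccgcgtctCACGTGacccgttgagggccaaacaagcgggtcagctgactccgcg
Ctsa: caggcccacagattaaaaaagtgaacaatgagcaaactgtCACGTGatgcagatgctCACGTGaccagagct

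CACGTG was in windows of Ctsa, Ctsd, Ctsf and Ctsl, and in 7.15% of all 32851 windows. GAGGAAG was in those of Ctsc and Ctss, and in 13.6% of all windows. The repeated GAAA was in the Ctss window alone among the members, and in 3.44% of all windows. The window of Ctsz held none of these motifs, although Ctsz moved with Ctsd and Ctsa even more closely than they did with each other. Of the Ctsa windows, the one with the annotated gene start (164832622 to 164832921) also held none. The Ctsa stretch shown is from the other, at 164833523 to 164833822. The motifs do not overlap each other in the stretches shown. A match in letters describes the sequence and shows no binding.

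Compared per kilobase of annotated exon, the members spanned a wide range of levels over the 28 libraries. Ctsd, which encodes the main aspartyl protease of lysosomes, was highest at 246 ± 55.2 CPM per kb (SD, n = 28), and no library overlapped with Ctsb. Ctsb, a cysteine peptidase, stood at 131 ± 9.42 CPM per kb and Ctss at 112 ± 27.5 CPM per kb, with overlapping ranges. Ctsz (29.3 ± 6.49 CPM per kb), Ctsl (20.9 ± 2.08 CPM per kb) and Ctsa (17.6 ± 2.13 CPM per kb) followed and also overlapped. Ctsf lay apart at 9.44 ± 0.619 CPM per kb. Ctsh (4.39 ± 0.923 CPM per kb) and Ctsc (3.05 ± 0.713 CPM per kb) overlapped. Ctse had the lowest mean, 1.46 ± 1.21 CPM per kb, over libraries that ranged from 0.0601 to 4.57 CPM per kb. It was at 0.220 ± 0.1001 CPM per kb in WT Veh (n = 4), and in 3xTg NAVI it was at 2.87 ± 1.23 CPM per kb against 2.93 ± 0.569 CPM per kb for Ctsc. Exon length was the union over transcripts, so genes with long minor transcripts read low on this scale.

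Together the 10 members took 0.152% to 0.267% of all counts in a library. The mean share was 0.172% in WT Veh, 0.163% in WT NAVI and 0.168% in WT DQ. In 3xTg it was 0.203% in VehN, 0.202% in VehD, 0.215% with NAVI and 0.191% with DQ. Ctsb and Ctsd held 70.6% to 75.0% of the members' counts in every library.

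**Figure D1:**
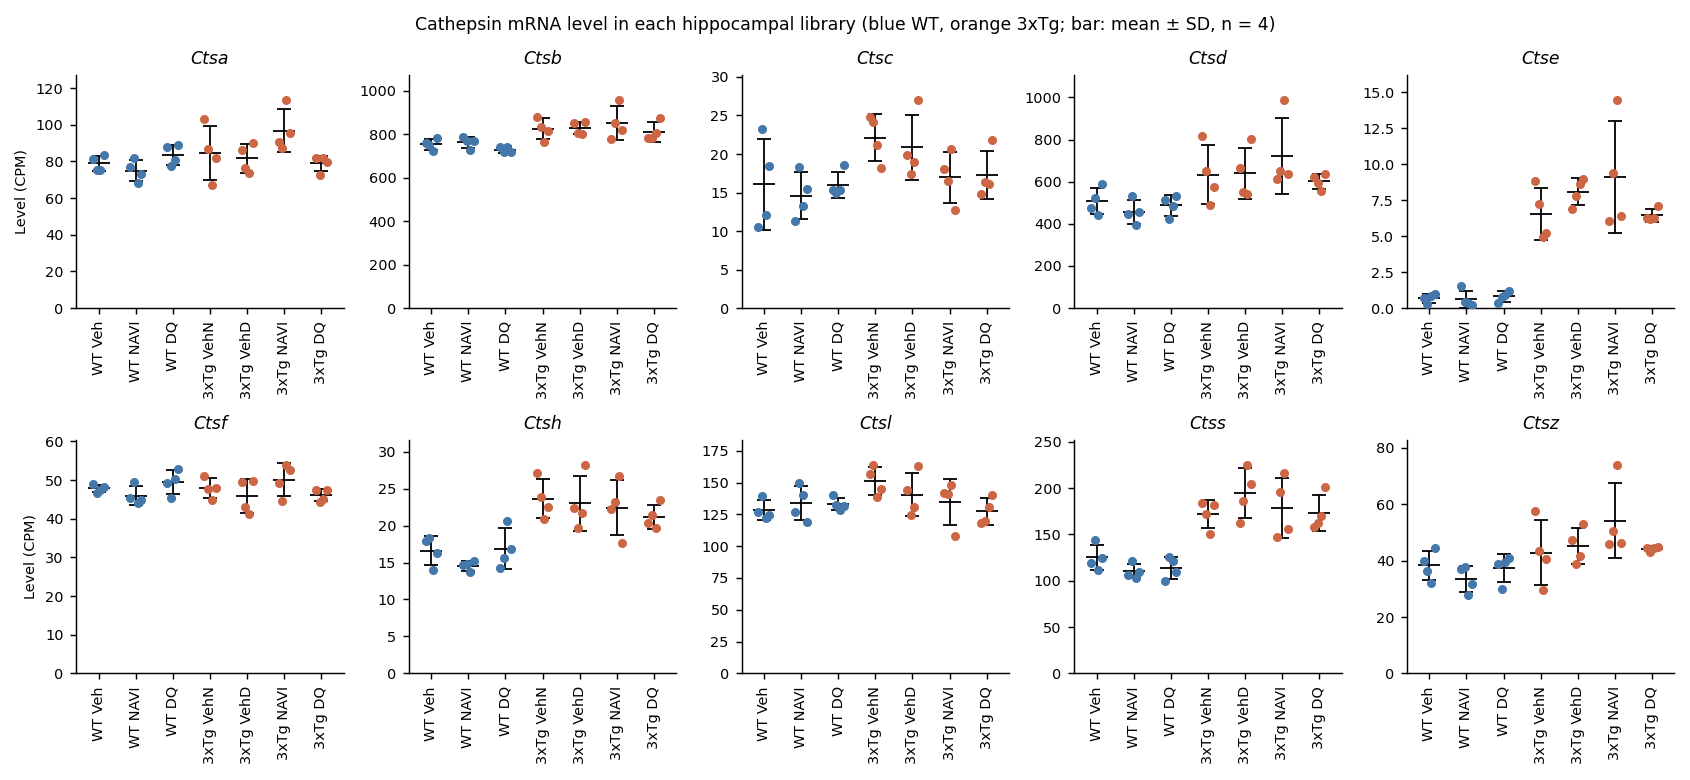
Level of each cathepsin in CPM (linear axes from 0) in 28 hippocampal libraries by group, with points for libraries (blue WT, orange 3xTg) and bars for the mean ± SD of 4 libraries. Ctse and Ctss are higher in all 16 3xTg libraries than in all 12 WT libraries, and the 3xTg NAVI library at 989.5 CPM of Ctsd stands above the others of its group.

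The comparison of 3xTg with WT given vehicle asked how the genotypes differ without drug, with VehN and VehD averaged (n = 8) against WT Veh (n = 4). Ctse, Ctss and Ctsh rose, 3 of 10 members, where 13.1% of all genes tested were called, 5.68% higher and 7.4% lower. Their groups did not overlap, which held for 5.71% of all genes. No member fell, and 9 of the 10 differences were positive, with a median of 0.27 against 0.00625 over all genes. At an unadjusted p under 0.05 there were 7 members, against 32.3% of all genes. This comparison shares its VehN, VehD or WT Veh libraries with the drug comparisons given further on.

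Among the aspartyl proteases, Ctse encodes an endosomal enzyme that is scarce in healthy brain. It stood at 0.704, 0.255, 0.852 and 0.985 CPM in WT Veh, at 8.81, 7.24, 4.97 and 5.24 CPM in VehN, and at 6.90, 7.80, 8.62 and 8.995 CPM in VehD. Every 3xTg vehicle library was thus above every WT library. The difference was 3.39 (SE 0.41, 95% interval 2.55 to 4.23, adjusted p = 6.28e-06). Ctse counts were 8 to 69 in the WT libraries and 216 to 474 in the 3xTg libraries, so the WT level is the less precise side of this fold.

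Ctsd, the abundant aspartyl protease, stood at 475, 522, 444 and 587 CPM in WT Veh. It was at 817, 653, 491 and 573 CPM in VehN and at 667, 551, 544 and 801 CPM in VehD. The groups overlapped, with 4 of the 8 3xTg libraries below the highest WT library. The difference of 0.33 (SE 0.13, 95% interval 0.05 to 0.60) was not called (adjusted p = 0.0951).

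Of the cysteine endopeptidases, Ctss encodes cathepsin S, which stays active at neutral pH and is made by microglia and other antigen-presenting cells. It stood at 119, 144, 112 and 125 CPM in WT Veh, at 184, 173, 150.2 and 182 CPM in VehN, and at 162, 186, 225 and 205 CPM in VehD. The lowest 3xTg library was above the highest WT library. The difference was 0.55 (SE 0.10, 95% interval 0.34 to 0.76, adjusted p = 0.00135).

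Ctsl and Ctsf, the other cysteine endopeptidases, were not called. Ctsl, a broad lysosomal endopeptidase, ran from 122 to 139 CPM in WT Veh, 139 to 164 CPM in VehN and 124 to 163 CPM in VehD (difference 0.18, adjusted p = 0.117). Ctsf was the flattest member, at 46.8 to 48.9 CPM in WT Veh, 44.9 to 51.2 CPM in VehN and 41.1 to 49.6 CPM in VehD. Its difference of -0.03 had a 95% interval of -0.15 to 0.09 (adjusted p = 0.739).

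Among the cysteine exopeptidases, Ctsh encodes an aminopeptidase of lysosomes. It stood at 17.9, 18.3, 13.9 and 16.2 CPM in WT Veh, at 27.1, 23.8, 20.9 and 22.5 CPM in VehN, and at 22.4, 19.7, 21.7 and 28.2 CPM in VehD. The highest WT library, at 18.3 CPM, was below the lowest 3xTg library, at 19.7 CPM. The difference was 0.49 (SE 0.11, 95% interval 0.26 to 0.72, adjusted p = 0.00598).

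Ctsb encodes cathepsin B, which cleaves as both an endopeptidase and a dipeptidase. It ran from 721 to 782 CPM in WT Veh, 764 to 881 CPM in VehN and 801 to 855 CPM in VehD, a small difference of 0.13 (SE 0.05, adjusted p = 0.0697). DESeq2 called it (adjusted p = 0.0411). Ctsc encodes the dipeptidyl peptidase that activates serine proteases of granules. Among its 7 groups it varied most in WT Veh, at 10.5, 23.2, 12.1 and 18.5 CPM. It ran from 18.2 to 24.9 CPM in VehN and from 17.5 to 27.1 CPM in VehD. Its difference of 0.42 (SE 0.18) was not called (adjusted p = 0.108) but was called without WT Veh replicate 2, the library at 23.2 CPM (0.65, adjusted p = 0.0191), and by limma-voom (0.55, adjusted p = 0.0471).

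Ctsz, a carboxypeptidase, stood at 40.04, 36.5, 32.1 and 44.5 CPM in WT Veh, at 57.5, 43.5, 29.7 and 40.6 CPM in VehN, and at 47.4, 38.8, 41.5 and 53.1 CPM in VehD. Both the highest and the lowest of these 12 libraries were VehN libraries. Its difference was 0.20 (SE 0.14, adjusted p = 0.333). Ctsa, the serine carboxypeptidase that also protects lysosomal glycosidases, ran from 75.2 to 83.5 CPM in WT Veh, 67.1 to 103 CPM in VehN and 73.5 to 90.1 CPM in VehD (difference 0.08, adjusted p = 0.549).

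**Figure D2:**
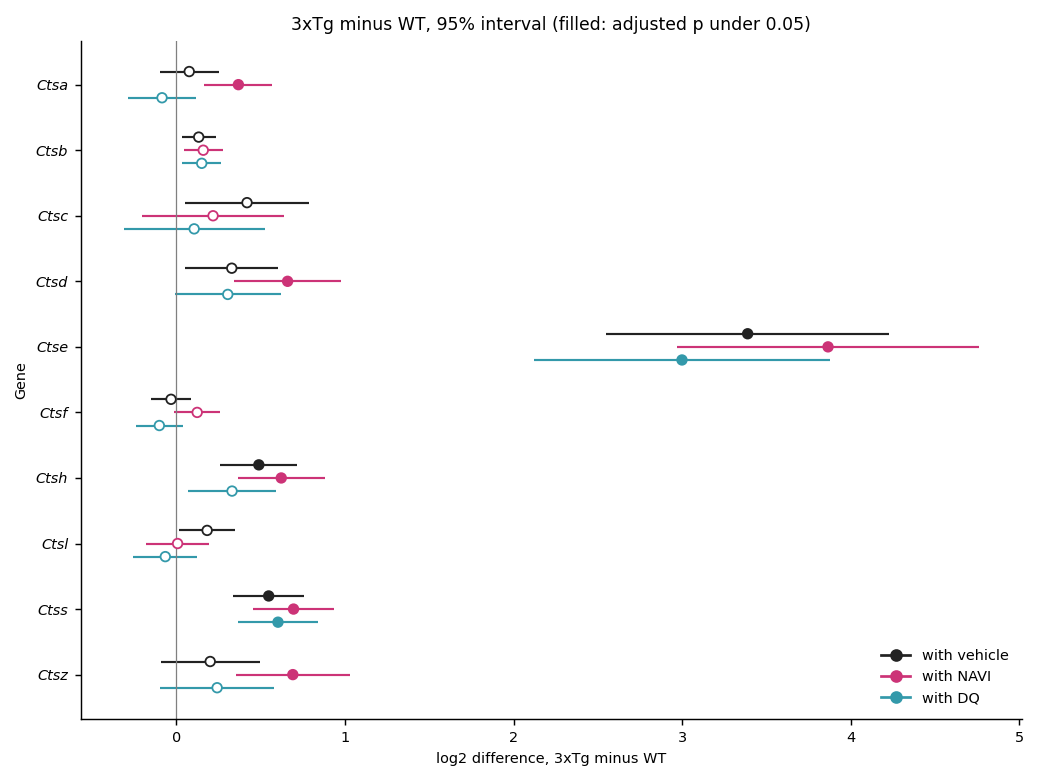
Log2 difference, 3xTg minus WT, of each cathepsin (x axis) with its 95% interval, for vehicle (black), NAVI (pink) and DQ (teal); filled points passed an adjusted p under 0.05. Filled points number 3 with vehicle, 6 with NAVI and 2 with DQ, and all of them lie to the right of 0.

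With NAVI, the genotypes were compared over 4 libraries each. Ctse, Ctss, Ctsh, Ctsd, Ctsz and Ctsa rose in 3xTg, 6 of 10 members, and none fell, where 5.98% of all genes were called, 3.29% higher and 2.69% lower. The same 6 members did not overlap between groups, which held for 14.6% of all genes. At an unadjusted p under 0.05 there were 7 members, against 27.4% of all genes. The median difference of the members was 0.50, against 0.00181 over all genes.

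Ctse was at 6.06, 9.41, 14.5 and 6.42 CPM in 3xTg NAVI and at 1.51, 0.424, 0.367 and 0.190 CPM in WT NAVI. The highest WT library, replicate 1, was still below every 3xTg library. The difference was 3.86 (SE 0.43, adjusted p = 2.50e-06).

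Ctss was at 147, 195, 216 and 156 CPM in 3xTg NAVI and at 107, 121, 104 and 109.8 CPM in WT NAVI, a difference of 0.70 (SE 0.12, adjusted p = 0.000669). Ctsh was at 22.2, 23.2, 26.6 and 17.7 CPM against 14.6, 14.8, 13.7 and 15.2 CPM, a difference of 0.62 (SE 0.13, adjusted p = 0.00412). For both genes the 4 WT libraries lay close together, and the 3xTg libraries were spread more widely.

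Ctsd was at 612, 650.5, 989.5 and 635 CPM in 3xTg NAVI and at 447, 531, 393 and 456 CPM in WT NAVI. Replicate 3 of 3xTg NAVI stood far above the other libraries of its group. The difference was 0.66 (SE 0.15, adjusted p = 0.0113), and without that library it was 0.46 (adjusted p = 0.0816).

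Ctsz was highest in that library as well, at 45.9, 50.5, 73.9 and 46.3 CPM in 3xTg NAVI against 36.9, 37.8, 27.7 and 31.6 CPM in WT NAVI. Its difference of 0.69 (SE 0.16, adjusted p = 0.0132) became 0.50 without it (adjusted p = 0.0937). Ctsa was at 90.7, 87.5, 114 and 95.3 CPM against 76.9, 81.7, 68.0 and 73.2 CPM, a difference of 0.37 (SE 0.10, adjusted p = 0.0259) that became 0.27 without it (adjusted p = 0.143). Replicate 3 of WT NAVI was the lowest WT NAVI library for all of Ctsd, Ctsz and Ctsa, and without it none of the 3 was called (adjusted p = 0.0536, 0.0623 and 0.104). Replicate 3 of 3xTg NAVI had the lowest total of all libraries, 32080861 counts, and the highest plaque-associated microglia score of its group, 1.06 against 0.29 to 0.63. A score is the mean log2 level of the markers relative to the mean of all libraries. With the homeostatic microglia score as a covariate, chosen after seeing the data, the differences were 0.15 for Ctsd (adjusted p = 0.892), 0.11 for Ctsz (adjusted p = 0.943) and 0.06 for Ctsa (adjusted p = 0.953). That score did not overlap between genotypes with NAVI, so this fit cannot separate it from genotype.

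Ctsb was not called with NAVI (0.16, adjusted p = 0.0839). It was called by DESeq2 (adjusted p = 0.0407), without the 8 libraries highest in thalamus markers (0.21, adjusted p = 0.0468) and with the GC trend removed (0.19, adjusted p = 0.0485). Ctsc, Ctsf and Ctsl were not called either. Ctsl had the smallest difference of the 10, at 107.9 to 148 CPM in 3xTg NAVI and 119 to 149 CPM in WT NAVI.

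With DQ, Ctse and Ctss rose in 3xTg, 2 of 10 members, and none fell, where 3.05% of all genes were called, 1.68% higher and 1.37% lower. Groups did not overlap for 5 members, Ctsb, Ctsd, Ctse, Ctss and Ctsz, against 10.8% of all genes, and 4 members had an unadjusted p under 0.05, against 17.4%. Ctse was at 6.26, 6.17, 6.28 and 7.10 CPM in 3xTg DQ and at 0.328, 0.805, 0.932 and 1.19 CPM in WT DQ, a difference of 3.00 (SE 0.43, adjusted p = 0.000120). Ctss was at 159, 162, 170.3 and 201 CPM against 99.5, 126, 121 and 109.0 CPM, a difference of 0.60 (SE 0.12, adjusted p = 0.00370). The 3xTg DQ libraries were the most even of all 3xTg groups for Ctse and for Ctsz, the latter at 42.9 to 44.9 CPM.

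Ctsh was not called with DQ. It was at 20.3, 21.4, 19.7 and 23.4 CPM in 3xTg DQ and at 14.3, 15.6, 20.7 and 16.9 CPM in WT DQ, so that 1 WT library lay inside the 3xTg range (difference 0.33, adjusted p = 0.167). Ctsb (0.15, adjusted p = 0.163) and Ctsd (0.31, adjusted p = 0.303) did not overlap between groups and were not called. Ctss kept its call with DQ in 11 of 13 alternative settings, with differences of 0.36 to 0.64 over all 13. It lost the call without the 8 libraries highest in thalamus markers (0.49, adjusted p = 0.0646), which include WT DQ replicates 1 and 4.

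Across treatments, Ctse and Ctss were the 2 members for which all 16 3xTg libraries lay above all 12 WT libraries. Such a separation held in either direction for 97 of the 16369 genes, 0.593%. Ctse ran from 0.190 to 1.51 CPM in WT and from 4.97 to 14.5 CPM in 3xTg. Ctss ran from 99.5 to 144 CPM in WT and from 147 to 225 CPM in 3xTg. Both were called in all 3 genotype comparisons, as were 157 genes in all (0.959%), of which 94 were higher. The 3 comparisons use different libraries.

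NAVI was compared with VehN and DQ with VehD in 3xTg, and each drug with Veh in WT, to ask whether treatment moved these genes. No member was called by edgeR, DESeq2 or limma-voom in any of the 4 comparisons. The share of all genes called was 0% for NAVI in 3xTg, for DQ in 3xTg and for NAVI in WT, and 0.00611% for DQ in WT. At an unadjusted p under 0.05 there was 1 member, Ctsz, with NAVI in 3xTg (29.1% of all genes), and none for DQ in 3xTg (1.83%), NAVI in WT (7.74%) or DQ in WT (3.38%). The groups overlapped for every member in each of the 4, while they did not for 5.43% of all genes with NAVI in 3xTg, 2.01% with DQ in 3xTg, 4.57% with NAVI in WT and 1.48% with DQ in WT.

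With NAVI in 3xTg, Ctsz had a mean of 54.1 CPM against 42.8 CPM in VehN, a difference of 0.34 (SE 0.16, 95% interval 0.00 to 0.67, adjusted p = 0.170). The NAVI libraries at 45.9 to 73.9 CPM overlapped with VehN at 29.7 to 57.5 CPM. Ctsa was at 0.19 (SE 0.10, adjusted p = 0.192), Ctsd at 0.19 (SE 0.15, adjusted p = 0.411) and Ctsc at -0.38 (SE 0.20, adjusted p = 0.209). The 10 differences ran from -0.38 to 0.47.

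VehN replicate 1 had the highest Ctsa, Ctsd and Ctsz of its group, and also the highest choroid plexus score (2.34) and thalamus score (1.95) of the group. Without it, Ctsz (0.53, adjusted p = 0.0261) and Ctsa (0.32, adjusted p = 0.0239) were called higher with NAVI in 3xTg. Without the 8 libraries highest in thalamus markers, which include VehN replicates 1 and 2, Ctsz (0.70, adjusted p = 0.0383), Ctsa (0.42, adjusted p = 0.0383) and Ctsd (0.52, adjusted p = 0.0462) were called higher. With choroid plexus and thalamus scores as covariates, Ctsz (0.48, adjusted p = 0.0487) and Ctsa (0.29, adjusted p = 0.0477) were called. They were also called without the 4 libraries highest in choroid plexus markers (0.62, adjusted p = 0.0407, and 0.38, adjusted p = 0.0405). All 4 of these are among the 8 libraries highest in thalamus markers, so both fits lack VehN replicates 1 and 2. Ctsz and Ctsa stayed uncalled in 11 of 14 alternative settings and in 7 of 8 fits without 1 library. Over the settings Ctsz fell as low as 0.044 and Ctsa 0.037, and without 1 library 0.15 and 0.10. The share of all genes called in these refits is not given.

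With DQ in 3xTg, 9 of the 10 differences were negative, from -0.33 to 0.01, with a median of -0.10 against -0.00229 over all genes. In WT they ran from -0.19 to 0.06 with NAVI and from -0.14 to 0.21 with DQ. The vehicles did not differ for any member by edgeR, DESeq2 or limma-voom, with VehN minus VehD from -0.30 to 0.10 and 0% of all genes called. None of the members and 4.93% of all genes had an unadjusted p under 0.05 there, and the vehicles' libraries overlapped for every member but not for 2.71% of all genes.

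**Figure D3:**
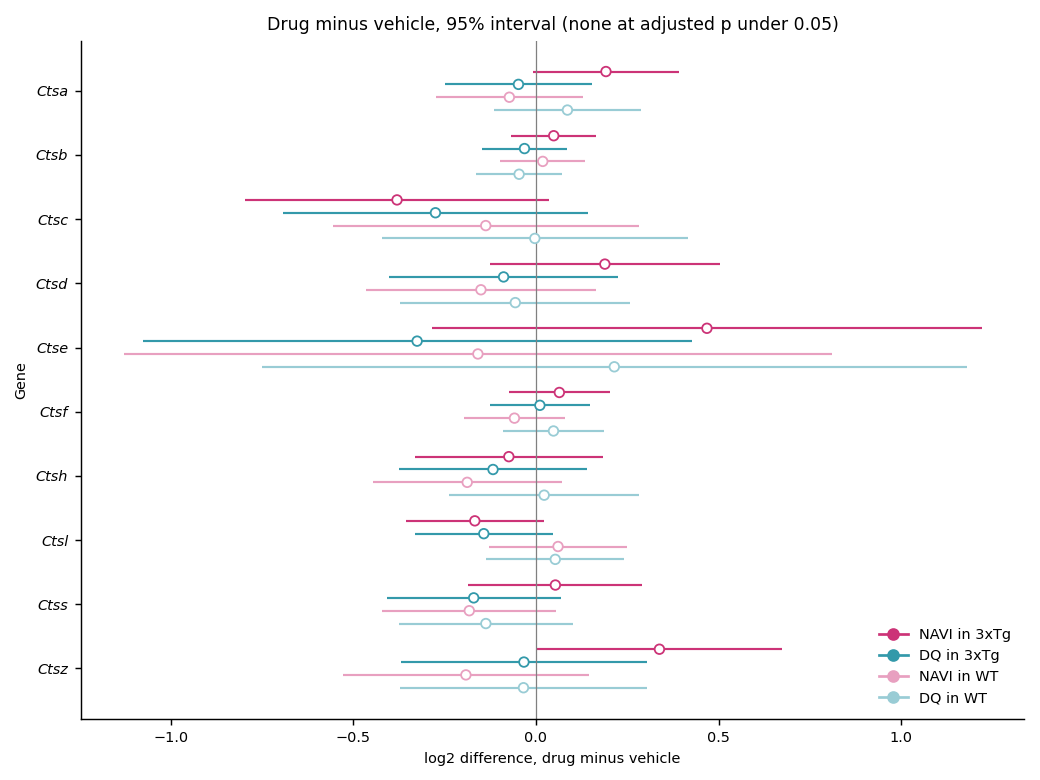
Log2 difference, drug minus vehicle, of each cathepsin (x axis) with its 95% interval, for NAVI and DQ in 3xTg (dark) and in WT (pale). All points are open because none passed an adjusted p under 0.05, and only the interval of Ctsz with NAVI in 3xTg lies wholly above 0.

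The effect of a drug in 3xTg minus that in WT was tested directly. No member was called for NAVI (8.13% of all genes) or for DQ (0% of all genes) by edgeR, DESeq2 or limma-voom. At an unadjusted p under 0.05, Ctsz was the single member for NAVI (32.7% of all genes), and there was none for DQ (2.85%). The NAVI effect differed by 0.53 for Ctsz (SE 0.23, adjusted p = 0.116), by 0.34 for Ctsd (SE 0.22, adjusted p = 0.276) and by 0.26 for Ctsa (SE 0.14, adjusted p = 0.183). Without VehN replicate 1, Ctsz (0.73, adjusted p = 0.0223) and Ctsa (0.39, adjusted p = 0.0304) were called. Neither was called in 15 of 16 fits without 1 library. This comparison shares all its libraries with those above, and because the WT vehicle is labelled only Veh it may hold a difference between vehicles.

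The members differed in how closely they varied together. Over the 28 libraries, after subtracting group means, Pearson's r was 0.93 for Ctsd and Ctsz, 0.91 for Ctsa and Ctsz and 0.88 for Ctsa and Ctsd. Ctsb had 0.83 with Ctsz, 0.81 with Ctsd and 0.75 with Ctsa. Ctsf, though flat between genotypes, had 0.80 with Ctsa, 0.73 with Ctsd and 0.67 with Ctsz. Ctse and Ctss, which rose together with genotype, had an r of 0.21 within groups. Counts of Ctse in WT were only 8 to 69, so its values of r, here and further on, are imprecise. The lowest values were -0.14 for Ctsc and Ctse and -0.05 for Ctsf and Ctss. Libraries of a group share depth and dissection, and these values are descriptions.

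The same measure was taken against the scores of lists. Several members were closest to lysosomal lists, with an r of 0.92 for Ctsa, 0.84 for Ctsz and 0.81 for Ctsf with regulators of lysosomal genes, 0.88 for Ctsd with the other hydrolases, and 0.84 for Ctsb with membrane and acidification. Ctss and Ctsh were closest to plaque-associated microglia. With those markers r was 0.84 for Ctsd, 0.83 for Ctsz, 0.80 for Ctsb and 0.71 for both Ctss and Ctsh. Ctse had 0.46 with that list and 0.57 with homeostatic microglia. Ctsc and Ctsl were highest with choroid plexus markers, at 0.80 and 0.67, and ran against neuron markers, at -0.67 and -0.65. Ctsd also had 0.65 with choroid plexus. With astrocyte markers r was 0.72 for Ctsz, 0.69 for Ctsa, 0.68 for Ctsb and 0.67 for Ctsd.

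**Figure D4:**
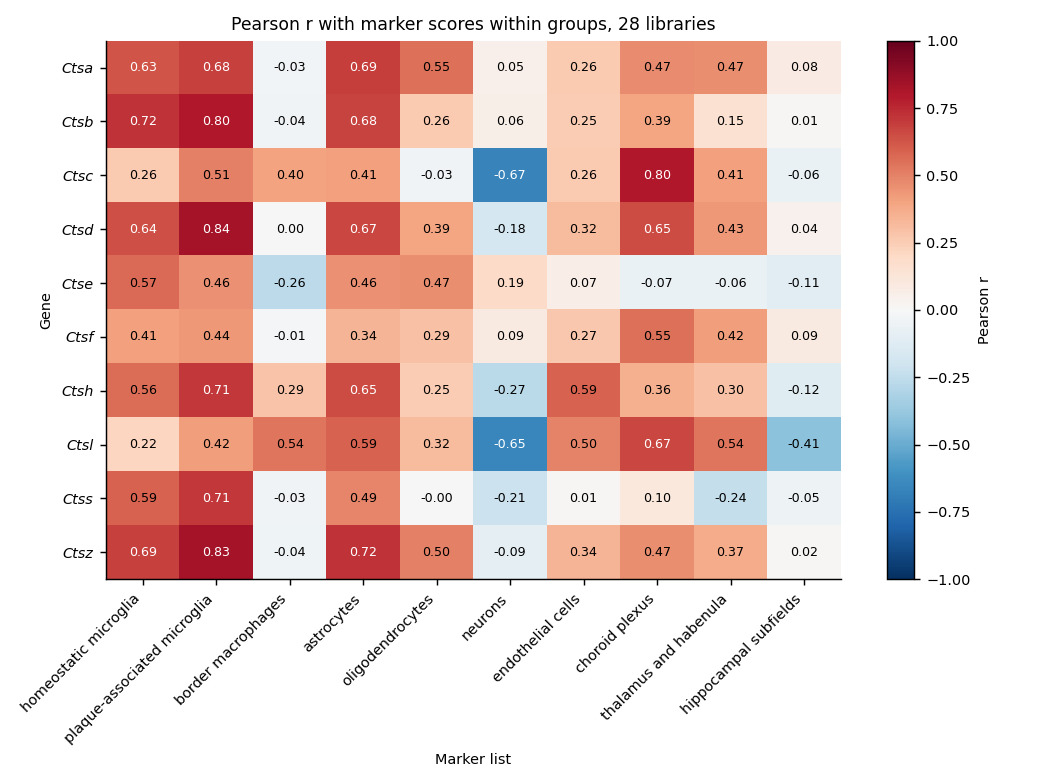
Pearson r over 28 libraries, after subtracting group means, between the log2 level of each cathepsin (rows of tiles) and the score of each of 10 marker lists (columns of tiles), from blue (negative) to red (positive). Among these 10 lists Ctsd, Ctsz and Ctsb are highest with plaque-associated microglia, and Ctsc with choroid plexus.

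For the 4 members with the smallest p between genotypes, the 3 genes most like each in the same measure were found among genes of at least 2 log2 CPM. For Ctse they were Slc35f6 (0.83), Agap1 (0.82) and Chil1 (0.81). Without subtracting group means the first 2 fell to -0.27 and -0.10, while Chil1, a chitinase-like protein, had 0.97. The low WT counts of Ctse limit these values. For Ctss they were C3ar1 (0.83), Fcgr3 (0.81) and Plek (0.81), receptors for complement C3a and IgG and a signalling protein of blood cells. These stayed at 0.90 to 0.94 without the subtraction. For Ctsh they were Anxa3 (0.82), Shc1 (0.80) and Rbms2 (0.80), and for Ctsb they were Ctsz (0.83), Lgmn (0.81), a lysosomal endopeptidase, and Ctsd (0.81).

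Other genes of the pathway were read from lists in the comparison with vehicle, where 13.1% of all genes were called. Of the other cathepsins, 3 were tested and 1 rose: Ctso, at 54.6 CPM in WT Veh and 65.9 CPM in 3xTg (0.27, adjusted p = 0.0106). Ctsk, the collagen-degrading cathepsin of osteoclasts, was at 0.34 and Ctsw, known from cytotoxic lymphocytes, at -0.14, neither called. Ctsg, a protease of neutrophils, had 0 to 4 counts per library and was not tested.

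Of 9 cathepsin inhibitors tested, 1 rose and none fell. Cst7, a cystatin taken up into endolysosomes, stood at 0.573 CPM in WT Veh and 8.74 CPM in 3xTg (3.91, adjusted p = 6.72e-08). Cst3, the abundant secreted cystatin C, was at 0.17 (adjusted p = 0.212) and Cst6 at -0.62 (adjusted p = 0.0882). With NAVI, where 5.98% of all genes were called, 2 inhibitors rose. Cst3 was one of them, at 907 CPM in 3xTg against 639 CPM in WT (0.51, adjusted p = 0.00694).

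Of 30 other lysosomal hydrolases 6 rose and 1 fell, with a median of 0.02. Asah1, acid ceramidase, rose by 0.42 and Lipa, acid lipase, by 0.39. Of 20 genes of the lysosomal membrane and acidification 4 rose and 2 fell, with a median of 0.07. The membrane protein Lamp2 (0.40) and the tetraspanin Cd63 (0.42) rose, and the proton pump subunit Atp6v0a1 fell by 0.16.

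Sorting and activation genes numbered 15, and 1 rose: Scarb2, the receptor that carries glucocerebrosidase to lysosomes (0.29, adjusted p = 0.00326). M6pr (0.11) and Sort1 (-0.10), a pair of sorting receptors, were not called. Among 11 regulators of lysosomal genes 1 rose, Irf8, a transcription factor of myeloid cells (0.45, adjusted p = 0.0468), while Mitf (0.30) and Rptor (-0.19) were not called. None of 11 class II antigen processing genes was called, and their median was -0.31, with Ciita, the master regulator of class II, at -0.48 (adjusted p = 0.0536).

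With NAVI, 5.98% of all genes were called. The counts there were 4 higher and 0 lower for the other hydrolases (median 0.14) and 3 and 1 for membrane and acidification. They were 1 and 0 for sorting, 2 and 0 for regulators, and 0 and 0 for class II genes (median 0.36) and the other cathepsins. With DQ, where 3.05% of all genes were called, 1 rose in each of the inhibitors, sorting genes, hydrolases and membrane genes. None fell in any of the 7 lists.

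The lists of cell type markers differed in direction between genotypes. Of all genes, 13.1% were called with vehicle, 5.98% with NAVI and 3.05% with DQ. Of 18 plaque-associated microglia markers 12 rose with vehicle and none fell (median 0.70), among them Clec7a (2.80), Cd84 (1.196) and Cst7, which is also on the list of inhibitors, and 15 rose with NAVI and 8 with DQ. Of 15 homeostatic microglia markers 1 rose with vehicle, P2ry13 (0.32), and 14 were positive (median 0.19), with 6 higher under NAVI and 1 under DQ. Their score overlapped between genotypes with vehicle, at -0.24 to -0.02 in WT and -0.14 to 0.27 in 3xTg. With NAVI it did not, at -0.31 to -0.12 in WT and 0.05 to 0.45 in 3xTg.

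With vehicle, where 13.1% of all genes were called, none of 8 border macrophage markers was called (median 0.59). Their summed level reached 49.4 CPM in VehN against 25.3 CPM in WT Veh. Astrocyte markers rose in 4 of 10, with Gfap at 1.31, and oligodendrocyte markers in 4 of 10. Of 12 neuron markers 1 fell, of 8 endothelial markers 2 fell, with Cldn5 at -0.89, and of 10 hippocampal subfield markers 3 fell, with C1ql2 at -0.89. Choroid plexus (median 0.60) and thalamus and habenula markers (median 0.97) were positive in 12 of 12 each, with none called. Neutrophil and monocyte markers fell in 2 of 6 and lymphocyte markers rose in 2 and fell in 2 of 5, all at a summed level of at most 30.3 CPM, and 4 of 5 erythroid markers were at 0 in every library. The part of cell composition in the cathepsin differences was not tested, and the covariate fits that follow do not measure it.

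Fits that add tissue or microglia scores, leave libraries out or remove a GC trend gave different values for different members in the comparison with vehicle. With the homeostatic microglia score as a covariate, chosen after seeing the data, Ctse (2.84, adjusted p = 2.54e-05), Ctss (0.37, adjusted p = 0.00985) and Ctsh (0.31, adjusted p = 0.0391) were still called. The uncalled Ctsd went from 0.33 to 0.07, Ctsb from 0.13 to 0.04 and Ctsz from 0.20 to -0.10. The same covariate with NAVI left Ctse alone called among the members, with Ctss at 0.35 (adjusted p = 0.381) and Ctsh at 0.27 (adjusted p = 0.621). That score did not overlap between genotypes with NAVI, so this fit cannot separate it from genotype.

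Without the 8 libraries highest in thalamus markers, Ctse (2.92), Ctss (0.62) and Ctsh (0.39) remained called with vehicle, while Ctsd was at 0.09, Ctsb at 0.06, Ctsz at -0.0638 and Ctsa at -0.11. With choroid plexus and thalamus scores as covariates 4 members were called, Ctse (3.39), Ctss (0.58), Ctsh (0.44) and Ctsc (0.35, adjusted p = 0.0397), and Ctsz was at 0.12. Removing each library's trend with GC content, also chosen after seeing the data, called 7 members higher. It moved members by their own GC content, adding 0.18 for Ctsz (57.3% GC), 0.17 for Ctsf (56.6%) and 0.15 for Ctsd (55.9%), and taking 0.13 from Ctsc (41.1%) and 0.10 from Ctsl (44.3%). Ctsd (0.47, adjusted p = 0.00535), Ctsz (0.38, adjusted p = 0.0196), Ctsa (0.19, adjusted p = 0.0280) and Ctsf (0.14, adjusted p = 0.0438) then passed beside Ctse, Ctss and Ctsh. For these fits the share of all genes called is not given.

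**Figure D5:**
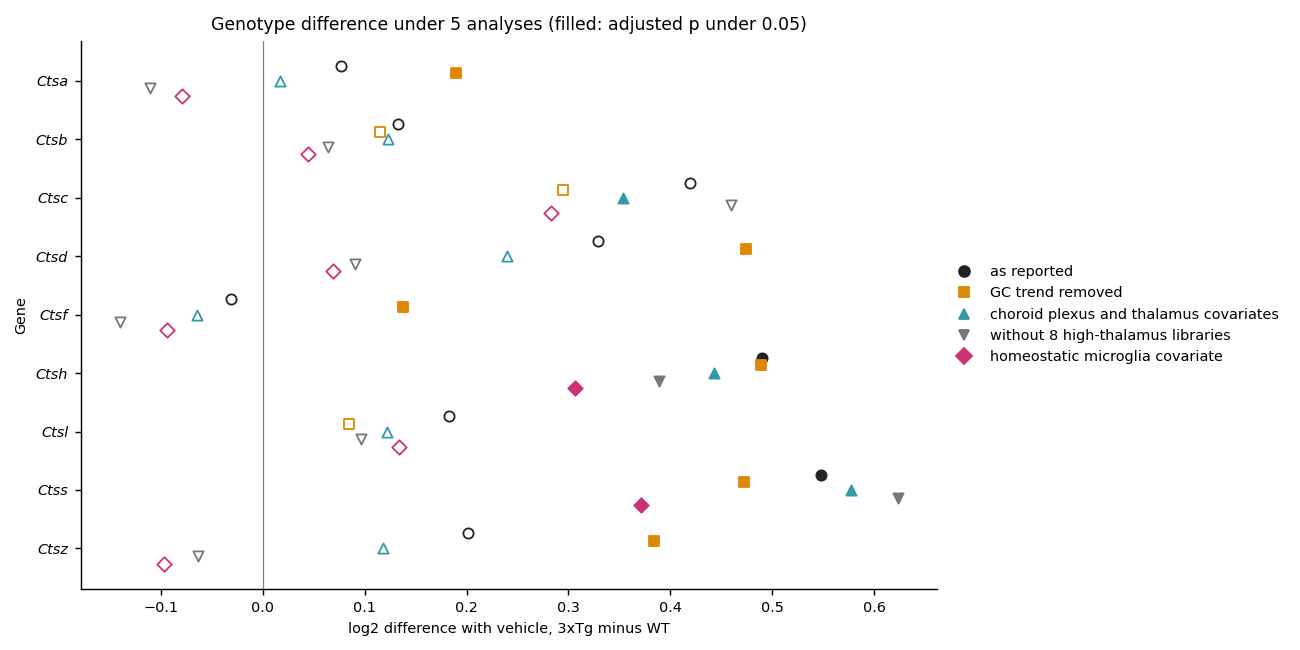
Log2 difference, 3xTg minus WT with vehicle, of 9 cathepsins (x axis; Ctse, at 2.84 to 3.39, is off this scale) in 5 analyses shown by symbol; filled symbols passed an adjusted p under 0.05. Ctss and Ctsh are filled in all 5, while Ctsd, Ctsz, Ctsa and Ctsf are filled with the GC trend removed and lie between -0.10 and 0.07 with the microglia covariate.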

How the data were processed

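Per the labels, hippocampal mRNA was prepared with a stranded kit and read as paired 100-base reads. The authors deposited raw counts per gene, and the submitters' processing notes name STAR, Subread, featureCounts and mm10 without their settings. From these counts, genes were filtered with filterByExpr (16369 of 24062 tested, 7693 removed), scaled by TMM and fitted over all 28 libraries and 7 groups with edgeR 4.0.16 in R 4.3.3, using the quasi-likelihood test with Benjamini-Hochberg adjustment over all genes tested. DESeq2 1.42.0 and limma-voom (limma 3.58.1) were alternatives, with other scaling, filters, covariates and left-out libraries.

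The members and lists were chosen with earlier results of these data known. Named genes are the 10 members, the other cathepsins, Cst7, up to 3 genes of each of 20 lists with the smallest p between genotypes with vehicle, and the genes most like 4 members. VehN was matched to NAVI and VehD to DQ by their last letter. Nothing states that libraries came from separate animals, so p-values measure the spread between these libraries, which may be technical. No libraries of a group were duplicates (smallest chi-square per degree of freedom 12.4). Totals of 32080861 to 54019519 counts set the precision. The fitting code was tested on simulated data. Some named genes are not reported here.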

Additional observations from a re-analysis of the deposited data

Results flagged for a closer look

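In 5 of 70 checks, 1 for each member in each group of 4 libraries, a single library stood apart from the other 3 by more than Dixon's 95% critical value. Chance alone flags about 1 in 20 such groups. In 3xTg NAVI, replicate 3 had 989.5 CPM of Ctsd against 612 to 650.5 CPM in the others, and 73.9 CPM of Ctsz against 45.9 to 50.5 CPM. In the same group, replicate 4 had 108 CPM of Ctsl against 141 to 148 CPM. In 3xTg DQ, replicate 4 had 7.10 CPM of Ctse against 6.17 to 6.28 CPM. In WT DQ, replicate 4 had 18.5 CPM of Ctsc against 14.99 to 15.3 CPM.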

How the results depend on the processing

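The counts of members called between genotypes, 3 with vehicle, 6 with NAVI and 2 with DQ, were the same with RLE or upper-quartile scaling, no filter and a mean count of at least 50. DESeq2 gave 4, 7 and 2, and limma-voom 4, 6 and 2. Leaving out 1 library at a time gave 3 to 4, 3 to 6 and 2 to 2; the 3 with NAVI came without 3xTg NAVI replicate 3 or without WT NAVI replicate 3. Removing the GC trend gave 7 with vehicle, the microglia covariate gave 1 with NAVI, and leaving out the 8 libraries highest in thalamus markers gave 1 with DQ. Shares of all genes called come from the TMM-scaled edgeR fit and are not given for these alternatives.

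For NAVI against VehN in 3xTg the count of 0 became 2 with choroid plexus and thalamus scores as covariates, 3 without those 8 libraries, 2 without the 4 highest in choroid plexus markers, and 0 to 2 without 1 library. For the NAVI effect between genotypes the 0 became 1, 3, 3 and 0 to 2 in the same order. In both, the 2 came without VehN replicate 1. All 4 choroid-high libraries are among the 8 thalamus-high ones. The cause of these shifts was not tested.

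The alternatives were followed for a chosen part of the member differences, and among these signs changed in 13 cases. With the microglia covariate the differences were -0.0790 for Ctsa and -0.10 for Ctsz with vehicle, -0.0208 for Ctsb with NAVI, -0.0612 for Ctsd with DQ, -0.0754 for Ctsd under NAVI in 3xTg and -0.00110 for the NAVI effect on Ctsd between genotypes. Without the 8 thalamus-high libraries they were -0.11 for Ctsa and -0.0638 for Ctsz with vehicle, and without the 4 choroid-high libraries -0.0403 for Ctsa. Ctsf with vehicle was 0.14 with the GC trend removed and 0.00121 against VehN alone. Ctsd under NAVI in 3xTg was -0.0220 with the GC trend removed, and without 1 library it ran from -0.00292 (3xTg NAVI replicate 3) to 0.354 (VehN replicate 1).

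With a replicate block the counts were again 3, 6 and 2, and 0 for each drug (Ctse with vehicle 3.41, adjusted p = 2.21e-05). Same-numbered libraries of different groups had an r over 0.1 in 32 of 84 pairs. For 9 of 28 libraries the mean r with other groups was highest at their own number. Whether a number marks a shared batch cannot be told from these values. Low counts of Ctse in WT, 8 to 69, limit the precision of its fold.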

Other observations

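Genes within 2 Mb of the called members were read after their values had been seen. Of 41 tested neighbours of Ctse, 5 rose in 3xTg with vehicle and none fell, which is 12.2% against 13.1% of all genes. They were Slc26a9 (1.24), Pm20d1 (0.80, adjusted p = 0.00506), Ikbke (0.69), Cd55 (0.44) and Mdm4 (0.25), and Pm20d1 was called in all 3 genotype comparisons. Of 20 neighbours of Ctsh, 2 rose, Bcl2a1b (1.83) and Bcl2a1a (1.64), and 1 fell, Adamts7 (-1.41). Bcl2a1b, like Pm20d1, was called in all 3 genotype comparisons. Bcl2a1a and Bcl2a1b are near-identical copies, so their counts are uncertain. Of 82 neighbours of Ctss, 3 rose and 3 fell.

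The ratio of Ctsd to Ctsb counts ran from 0.542 to 1.03 over the libraries, with group means of 0.672 in WT Veh, 0.598 in WT NAVI, 0.669 in WT DQ, 0.764 in VehN, 0.771 in VehD, 0.839 in 3xTg NAVI and 0.745 in 3xTg DQ.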
